A study of Mus musculus with 12 samples.

Results

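The methamphetamine-only intron peaks are 3425 stretches of 100 nt inside introns that the study's authors listed as bound by the RNA-binding protein hnRNP H in mouse striatum after methamphetamine and did not list at the same position after saline. The members were thus chosen by the authors' peak calls on the CLIP reads of each treatment. A position was taken when its chromosome, start and strand stood in the methamphetamine list and not in the saline list, and when its midpoint lay in an intron and in no exon by the authors' own region rows. The methamphetamine list held 9903 positions, of which 6706 were intronic, and 3281 of those stood in both lists. The saline list held 9537 positions, and 3611 intron positions stood in it only. Because the lists chose the members, CLIP reads after methamphetamine against saline are given for them as a description, without a test. The RNA-seq level of the genes that hold the peaks was not used by the rule and was tested.

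All tissue came from wild-type C57BL/6J mice of post-natal day 50 to 100, offspring of males heterozygous for an Hnrnph1 mutation and C57BL/6J females. Every mouse received saline on days 1 and 2. On day 3 the saline group received saline again and the methamphetamine group received the psychostimulant methamphetamine at 2 mg/kg, and whole striata were taken 30 min later. Each treatment had 3 replicates. A replicate pooled the striata of 4 mice (2 females and 2 males), and each pool gave 1 CLIP-seq and 1 RNA-seq library. In CLIP-seq, RNA cross-linked to hnRNP H was precipitated with an antibody, a membrane slice from 50 to 75 kDa was cut out, and its RNA was sequenced. A portion of each pool, set aside before cross-linking, gave the RNA for RNA-seq. Mutant animals were not analysed here.

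hnRNP H is a nuclear RNA-binding protein that contacts runs of guanines through its quasi-RNA recognition motifs. In introns, such runs near a splice site can help or hinder the use of the neighbouring exon, depending on where hnRNP H sits. Intron sequence is present mainly in RNA that has not yet been spliced, so intron reads come from nascent and nuclear transcripts, retained introns and small RNAs cut from introns.

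Member sequences could be read where a peak lay whole in an exon of a GENCODE M21 transcript on the same strand, mostly a transcript annotated as a retained intron. This held for 231 of the 3425 members (6.75%). The sequences below are those of the strongest peaks by the authors' signal value, Creb3l3 and Snrnp25, and of the genes with the most members where these have sequence, Gpi1, Pde10a, Pde1b and Ahdc1. They run 5′ to 3′ on the strand of the gene, and capitals mark runs of at least 3 guanines. Creb3l3 lies at chr10:81090625-81090724 (minus strand), Snrnp25 at chr11:32206816-32206915 (plus), the first Gpi1 peak at chr7:34215431-34215530 and the second at chr7:34208731-34208830 (both minus), Pde10a at chr17:8920573-8920672 (plus), and the Pde1b peaks at chr15:103523835-103523934 and chr15:103523935-103524034 and the Ahdc1 peak at chr4:133012061-133012160 (all plus), on GRCm38 (mm10).
Creb3l3: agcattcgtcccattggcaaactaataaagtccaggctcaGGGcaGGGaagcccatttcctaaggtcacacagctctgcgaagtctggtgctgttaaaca
Snrnp25: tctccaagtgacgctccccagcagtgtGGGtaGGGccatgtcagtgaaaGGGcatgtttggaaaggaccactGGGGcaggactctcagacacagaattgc
Gpi1, first peak: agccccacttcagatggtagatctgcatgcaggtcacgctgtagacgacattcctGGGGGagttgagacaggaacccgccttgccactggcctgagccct
Gpi1, second peak: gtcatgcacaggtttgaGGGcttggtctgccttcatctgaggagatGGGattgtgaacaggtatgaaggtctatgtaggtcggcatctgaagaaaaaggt
Pde10a: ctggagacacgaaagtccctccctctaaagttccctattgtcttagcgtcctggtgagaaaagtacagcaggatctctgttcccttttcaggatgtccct
Pde1b, first peak: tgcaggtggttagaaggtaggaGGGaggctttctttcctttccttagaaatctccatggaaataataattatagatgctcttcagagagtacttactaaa
Pde1b, second peak: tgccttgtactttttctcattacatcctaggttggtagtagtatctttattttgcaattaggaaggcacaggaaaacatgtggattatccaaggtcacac
Ahdc1: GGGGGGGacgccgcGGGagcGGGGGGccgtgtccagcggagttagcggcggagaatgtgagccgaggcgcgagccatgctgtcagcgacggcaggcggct

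These peaks differ in guanine runs. Snrnp25 holds 4 runs of at least 3 guanines, Creb3l3 and the second Gpi1 peak hold 2 each, and the first Gpi1 peak holds 1 run of 5 guanines. The Ahdc1 peak, with 50% guanine, holds 3 runs, the longest of 7. The Pde10a peak and the second Pde1b peak hold 0 such runs. Of the 231 members with sequence, 209 held GGG on the transcribed strand (90.5%, Wilson 95% interval 86.0 to 93.6), and 131 held GGGG (56.7%, 50.3 to 62.9). Every GGGG also counts as a GGG. On the other strand, read as CCC, the share was 68.4%.

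Windows of the same length shifted by 500 nt on the same strand could be read for 138 members. GGG stood in 89.9% of these members and in 76.1% of their shifted windows, and GGGG in 52.2% and 38.4%. CCC stood in 65.9% of the members and 72.5% of the windows. The median guanine content of the members was 32.0%, against 25.5% in the windows. Intron peaks of both lists, of which 141 had sequence, held GGG in 87.2% and GGGG in 70.2% (62.2 to 77.1). The 148 intron peaks of the saline list only that had sequence held GGG in 89.9% and GGGG in 54.1% (46.0 to 61.9). The GGGG share of the members lay near that of the saline-only peaks and below that of the shared peaks. Intervals cover counting error only.

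By the authors' intron types, 1942 members (56.7%) lay in distal intron, 958 (28.0%) in the class named px200 and 525 (15.3%) in the class named px500, both next to exons. Among shared intron peaks 59.6% were distal, and among saline-only intron peaks 63.1%. Distances to exons were taken where the midpoint lay outside every exon of its own gene in GENCODE, which held for 3175 members. Their midpoint lay a median of 931 nt from the nearest such exon, against 1150 nt for shared and 1448 nt for saline-only intron peaks. The introns around these members had a median length of 5593 nt, against 7689 and 9376 nt. In 240 of 3415 members (7.03%) the midpoint lay inside an exon of some GENCODE transcript of the same gene, although the authors' rows gave an intron. This was so in 4.74% of shared and 4.50% of saline-only intron peaks. Of the 1195 members with the midpoint within 500 nt outside an exon, 723 (60.5%, Wilson 95% interval 57.7 to 63.2) had that exon upstream. The midpoints of the 1195 thus lay downstream of a 5′ splice site more often than upstream of a 3′ splice site. The share was 57.7% in shared and 56.9% in saline-only intron peaks.

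The members fell in 2379 genes, taken from the gene in each peak's own name. Of these genes, 1863 held 1 member, 466 held 2 to 4, and 50 held 5 or more, together 447 members. Of the 2379 genes, 634 also held a shared intron peak, and 641 held a saline-only intron peak. In 1264 genes, with 1446 members, the saline list had no position of any region. In 196 members (5.72%) the intron row came only from another gene. Some of these other genes lie on the same strand, as Pde2a does for a member of Gm45837. The authors' region rows were also not limited to the strand of the peak. Few members overlapped another: they formed 3336 clusters of overlapping positions, of which 3257 held 1 member. Members that only abutted each other were counted as separate clusters. A saline-list position overlapped 42 members by at least 1 bp and abutted 238 others.

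CLIP depth was 423057 to 1635338 reads per library in 147438 distinct positions, and RNA-seq depth 3935160 to 5091839 reads. The RNA-seq libraries stood apart across treatment. In saline replicates 1 and 3 and methamphetamine replicate 2 (library set A) the effective RNA-seq library size was 0.860 to 0.904 times the read total, and in the other 3 libraries (set B) 1.01 to 1.02 times. The labels name no batch for these sets. Striatal identity was checked with 10 markers of medium spiny neurons, and each was detected; their summed RNA-seq level was 8335 to 10345 CPM after saline and 7611 to 9447 after methamphetamine. Summed markers of choroid plexus were 69.4 to 209 CPM in 5 libraries and 4504 CPM in methamphetamine replicate 2. Summed markers of cortical excitatory neurons were 268 to 781 CPM after saline and 620 to 1370 after methamphetamine, and of oligodendrocytes 4811 to 11093 and 7530 to 13158. The part of these cells in the results was not tested, and in bulk tissue fewer cells of a type and less RNA per cell cannot be told apart.

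Counts were available for 3293 members, and 132 had no line in the count table used here. Values are given in the order of replicates 1 to 3 throughout. The median member had 4, 1 and 6 saline reads and 10, 6 and 5 methamphetamine reads. As CPM (counts per 1e6 reads of the library in all positions), these medians were 3.80, 2.36 and 3.67 after saline and 11.0, 6.12 and 8.40 after methamphetamine. All 3 methamphetamine medians were above all 3 saline medians. At this depth, a count of 0 allows up to 3 reads, which is 7.09 CPM in saline replicate 2, the shallowest library, and 1.83 CPM in saline replicate 3. No reads were found in 567, 1410 and 656 members in the saline libraries and in 160, 647 and 556 in the methamphetamine libraries.

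Absence from the saline list did not mean absence of saline reads. Only 301 of 3293 members (9.14%) had 0 reads in all 3 saline libraries, and 1539 (46.7%) had reads in all 6 libraries. The methamphetamine mean was above the saline mean in 2528 members (76.8%) and at least 2 times as high in 1794. In the other 765 (23.2%) the saline mean was as high or higher, and in 168 of these it was at least 2 times as high. All methamphetamine libraries were above all saline libraries in 370 members (11.2%), where 3.56% of all positions showed this, and below them in 76 (2.31%), where 2.07% of all positions did. The list rule used this contrast, so these shares only describe the members.

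Methamphetamine replicate 1 carried a large part of the difference. It held the highest CPM of the 6 libraries in 1336 members (40.6%), methamphetamine replicate 3 in 796 and methamphetamine replicate 2 in 459. Of 3133 members with at least 10 methamphetamine reads, 392 drew over 90% of them from 1 library, which was methamphetamine replicate 1 in 284. On the log2(CPM + 1) scale the median ratio of the treatment means was 0.99 in members and 0.23 over all positions, a difference of 0.77. Without methamphetamine replicate 1 the medians were 0.47 and 0. With TMM scaling they were 1.31 and 0.44, and with DESeq2 size factors 1.24 and 0.38. Within library set A, where methamphetamine replicate 2 stands against saline replicates 1 and 3, the median in members was 0.05, against 0 over all positions. Within set B, where methamphetamine replicates 1 and 3 stand against saline replicate 2, it was 1.61 against 0.63. Fitted over the 10358 positions past the count filter, edgeR's quasi-likelihood test called 0 (0.0%) after Benjamini-Hochberg adjustment, with 347 at an unadjusted p under 0.05. DESeq2 called 0 of 10242, with 345 unadjusted.

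The members differed by their level, taken as the mean of the same 6 libraries whose reads made the lists. The split by level is therefore not independent of the rule and only describes the members. Of the 1125 members with a mean below 5 CPM over the 6 libraries, 1105 (98.2%) had the higher mean after methamphetamine, and of the 1138 from 5 to 10 CPM, 1068 (93.9%). From 10 to 20 CPM the share was 48.7% of 540 members, from 20 to 50 CPM 19.4% of 366, and at 50 CPM or more 16.9% of 124. In shared intron peaks the share fell less along the same levels, from 63.8% below 5 CPM to 30.1% at 50 CPM or more. In saline-only intron peaks it ran the other way, from 9.61% to 28.6%.

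The 490 members at 20 CPM or more had medians of 38.0, 26.0 and 37.0 CPM after saline and of 17.6, 31.6 and 23.5 after methamphetamine. The treatments overlapped, with methamphetamine replicate 2 among the saline values. In these strong members the mean was higher after methamphetamine in 92, in 146 with TMM scaling, in 144 without methamphetamine replicate 1, in 178 within set A and in 212 within set B, so saline was higher in most of them each time. The 2263 members below 10 CPM had medians of 1.90, 0 and 1.83 CPM after saline and 11.0, 3.06 and 6.72 after methamphetamine. Of these weak members, 2173 were higher after methamphetamine, 1752 without methamphetamine replicate 1, 1242 (54.9%) within set A and 2040 (90.1%) within set B.

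**Figure D1:**
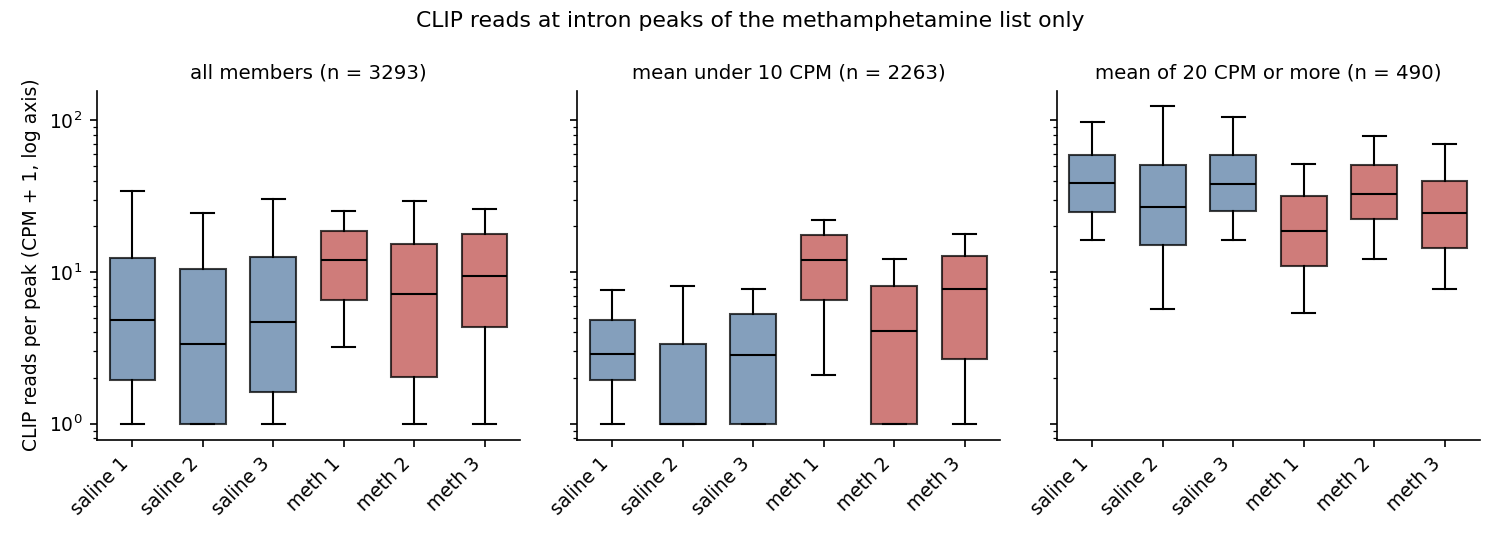
CLIP reads per peak (CPM + 1, log axis) in each of the 6 libraries, for all 3293 members with counts, the 2263 below 10 CPM and the 490 at 20 CPM or more; boxes span the quartiles with the median as a line, and whiskers the 10th to 90th percentile. Weak members had medians of 11.0, 3.06 and 6.72 CPM after methamphetamine and 0 to 1.90 after saline, while strong members had their highest medians, 38.0 and 37.0 CPM, in saline replicates 1 and 3.

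**Figure D2:**
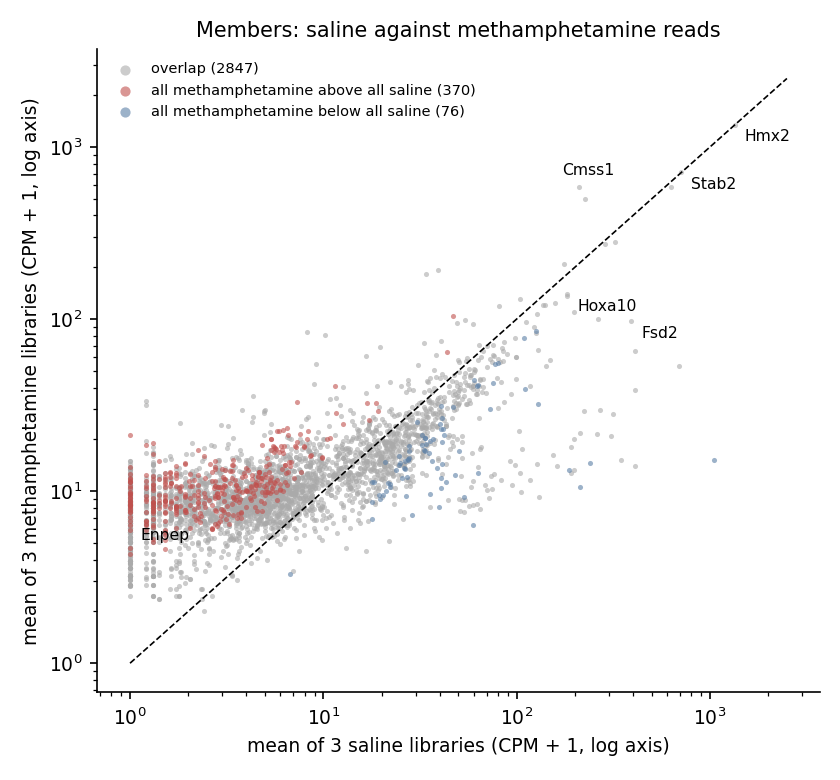
Mean CPM + 1 of the 3 methamphetamine libraries against that of the 3 saline libraries for each member, on log axes, with the dashed line at equal values; red and blue points are the 370 and 76 members whose treatments did not overlap. Weak members lie mostly above the line and strong ones mostly below it, with Hmx2 and Stab2 on it.

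In all, the members took 4.73, 4.46 and 4.38% of the reads of the saline libraries and 4.54, 4.24 and 4.82% of those of the methamphetamine libraries. The means were 4.52% ± 0.186 after saline and 4.54% ± 0.290 after methamphetamine (SD, n = 3 pools each), a difference of 0.0117 percentage points, smaller than the spread between pools. Without the 1% of positions with the most reads the difference was 0.544 percentage points. The shares were then 7.08, 6.64 and 6.96% after saline and 6.71, 7.22 and 8.38% after methamphetamine, so the treatments overlapped.

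The edge of the rule is narrow. The 236 counted members that abut a saline-list position had medians of 10.4, 4.73 and 12.8 CPM after saline and 12.1, 15.3 and 13.4 after methamphetamine. Just outside, the 3266 counted intron peaks of both lists had 16.1, 11.8 and 14.7 CPM after saline and 11.0, 16.3 and 13.4 after methamphetamine. At the authors' q-value limit, the 162 counted members with a q-value from 0.04 to 0.05 had 2.37, 0 and 2.45 CPM after saline and 9.90, 3.06 and 5.04 after methamphetamine.

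The authors' signal value, whose scale is not given in the sources used here, ranged from 0.71 to 5.94 in members with a median of 1.48, and had a median of 1.78 in shared and 1.57 in saline-only intron peaks. It is used here only to rank members within the list. Where the members were split into 4 classes of near-equal size by the RNA-seq level of their gene per kilobase of exon, the median signal value was 1.95 in the lowest class and 1.49, 1.39 and 1.28 in the following ones.

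The strongest members by signal value lay mostly in genes with few RNA-seq reads in striatum. The first was in Hoxa10, a homeobox transcription factor of axial patterning, at chr6:52236998-52237097 in a distal intron on the minus strand. Its saline reads were 183, 54 and 395 and its methamphetamine reads 65, 201 and 82, while the gene itself had 5 to 24 RNA-seq reads per library. Its CPM was 174, 128 and 242 after saline and 71.5, 205 and 138 after methamphetamine, so the treatments overlapped and saline replicate 3 was highest.

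Tnfsf11, the cytokine RANKL of bone remodelling, had its member at chr14:78282746-78282845, with 210, 80.4 and 300.2 CPM after saline and 60.5, 184 and 84.0 after methamphetamine. Slc26a4, the anion exchanger pendrin, had its member 27 nt downstream of an exon at chr12:31540428-31540527, with 208, 125 and 194 CPM after saline and 89.1, 163 and 373 after methamphetamine. The members of Tnfsf11 and Slc26a4 both overlapped between treatments, and methamphetamine replicate 1 was lowest in each. The member of Spocd1, a gene known from silencing of transposons in the germ line, lay at chr4:129933950-129934049 and had 336, 213 and 309 CPM after saline and 130, 295 and 386 after methamphetamine. Spocd1 was among the 155 host genes with no line in the RNA-seq table used here.

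Creb3l3, a membrane-bound transcription factor of liver, whose sequence is printed above, had 50.3, 26.0 and 69.7 CPM after saline and 15.4, 85.7 and 68.9 after methamphetamine. Fsd2 had 96, 425 and 115 saline reads and 44, 89 and 89 methamphetamine reads, with saline replicate 2 at 1005 CPM and the other libraries at 48.4 to 149. In both genes the treatments overlapped. Enpep, which encodes the peptidase that trims angiotensin, had 15 reads in methamphetamine replicate 1 and 0 in the other 5 libraries. Snrnp25, a protein of the minor spliceosome, had 12 reads in methamphetamine replicate 1 and 0 elsewhere. These members with a signal value of 5.01 and 4.99 therefore rest on 1 library each.

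Ranked by CPM after methamphetamine, the 3 highest members had similar means after saline. The top one lay in Hmx2, a homeobox gene of inner ear and hypothalamus, at chr7:131551874-131551973. It had 1624, 908 and 1487 CPM after saline and 607, 1923 and 1502 after methamphetamine, with a log2 ratio of the means of 0.00. The member of Stab2, a scavenger receptor of sinusoidal endothelium, at chr10:86980999-86981098, had 641, 681 and 799 CPM after saline and 483, 629 and 1026 after methamphetamine. That of Efcab11, at chr12:99838446-99838545, had 686, 492 and 700 and then 264, 687 and 793. All 3 overlapped between treatments.

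Cmss1 and Il31ra departed from this only in methamphetamine replicate 3. The Cmss1 member at chr16:57391501-57391600 had 142, 312 and 172 CPM after saline and 306, 162 and 1273 after methamphetamine. The member of Il31ra, a cytokine receptor subunit, at chr13:112578199-112578298, had 211, 324 and 136 and then 234, 108 and 1156. The member of Bloc1s5, part of a complex that sorts cargo to lysosome-related organelles, at chr13:38634243-38634342, had 397, 248 and 318 and then 228, 353 and 254. Apart from replicate 3 of Cmss1 and Il31ra, the methamphetamine libraries lay within or below the saline range of these 3 members.

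Pde10a held the most members. Its enzyme breaks down cAMP and cGMP and is enriched in medium spiny neurons. The 43 members of Pde10a stood beside 27 shared and 12 saline-only intron peaks of the same gene, which lies at chr17:8525372-8986648 on the plus strand. Summed over its members, Pde10a had 561, 208 and 405 CPM after saline and 817, 518 and 467 after methamphetamine. Saline replicate 1 lay above methamphetamine replicates 2 and 3. Of the 39 Pde10a members with counts, 35 had the higher mean after methamphetamine, and in 10 all methamphetamine libraries were above all saline libraries. Over all members these shares were 76.8% and 11.2%, and 3.56% of all positions had all methamphetamine libraries above. The rule used this contrast, so the Pde10a counts are a description. Summed over all its positions in the count table, Pde10a had 3453, 2047 and 2705 CPM after saline and 4656, 3090 and 2204 after methamphetamine.

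Other phosphodiesterase genes followed. Pde2a, whose enzyme is stimulated by cGMP, held 34 members and only 7 shared and 3 saline-only intron peaks, and Gm45837, which overlaps it on the same strand, held 34 more. The reads of Pde2a and Gm45837 cannot be told apart: their windows lie 5 nt apart and their RNA-seq reads were identical in every library. The Pde2a members summed to 224, 142 and 202 CPM after saline and 441, 276 and 312 after methamphetamine, with no overlap. All Pde2a positions together, members included, gave 1093, 810.8 and 1176 CPM and then 1834, 1247 and 1243, also with no overlap. Pde1b, whose enzyme is activated by calcium and calmodulin, held 12 members with 1 shared and 1 saline-only intron peak. The Pde1b members summed to 67.4, 70.9 and 53.2 CPM and then 206.8, 78.6 and 102.5, again with no overlap. All Pde1b positions together gave 1937, 957 and 2155 and then 1413, 2389 and 1639, so the treatments overlapped. The rule used this contrast, so the sums over members are a description. The share of all genes whose member sums do not overlap is not given here.

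The first Pde1b peak printed above had 5, 0 and 4 saline reads and 23, 7 and 6 methamphetamine reads, which do not overlap in CPM. The second Pde1b peak, which abuts it, had 1, 0 and 0 reads and then 22, 3 and 0. Methamphetamine replicate 1 was highest in both.

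**Figure D3:**
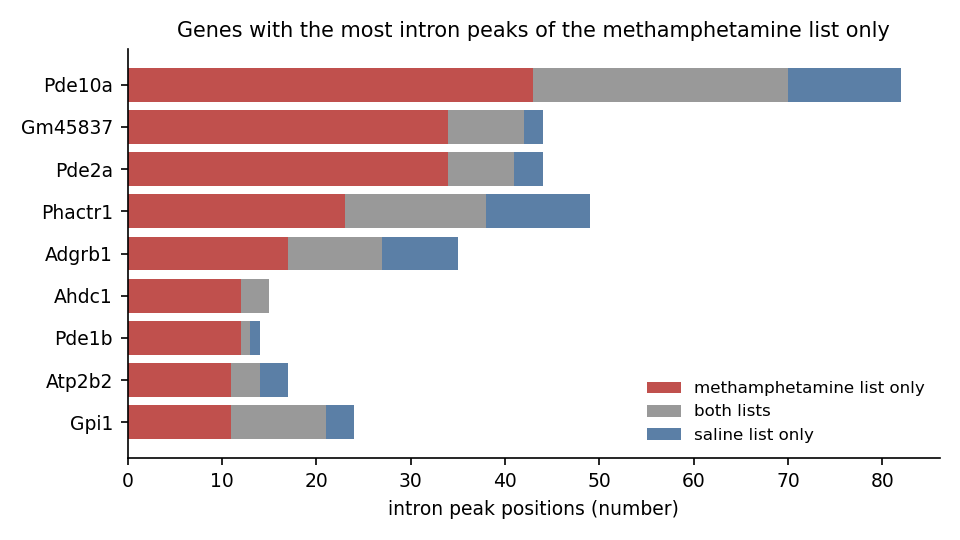
Number of intron peak positions in the 9 genes with the most members (a tie put 9 genes in place of 8), split into the methamphetamine list only, both lists and the saline list only. Pde10a held 43, 27 and 12 of these, and Pde2a 34, 7 and 3.

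Phactr1, which binds actin and protein phosphatase, held 23 members beside 15 shared and 11 saline-only intron peaks. The Phactr1 members summed to 120, 123 and 69.1 CPM after saline and 569, 107 and 190 after methamphetamine, so replicate 2 lay within the saline range and methamphetamine replicate 1 stood out. All Phactr1 positions together gave 8787 CPM in that replicate, against 2400 to 3921 elsewhere. Adgrb1, an adhesion receptor at synapses, held 17 members. The Adgrb1 members summed to 84.5, 80.4 and 99.1 CPM after saline and 186, 142 and 141 after methamphetamine, with no overlap. All Adgrb1 positions together gave 873.5, 777.7 and 902.6 CPM and then 1002, 1028 and 866.7, so the treatments overlapped. The rule used this contrast, so the sums over members are a description.

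Ahdc1, which encodes an AT-hook DNA-binding protein, held 12 members with 57.9, 35.5 and 84.4 CPM after saline and 78.1, 93.9 and 170 after methamphetamine. Atp2b2, a calcium pump of the plasma membrane, held 11 with 116, 28.4 and 201 CPM and then 144, 85.7 and 35.3. Gpi1, glucose-6-phosphate isomerase, held 11 with 81.7, 102 and 143 CPM and then 122, 180 and 123. The treatments overlapped in these 3 genes, and in Atp2b2 the saline mean was the higher one.

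**Figure D4:**
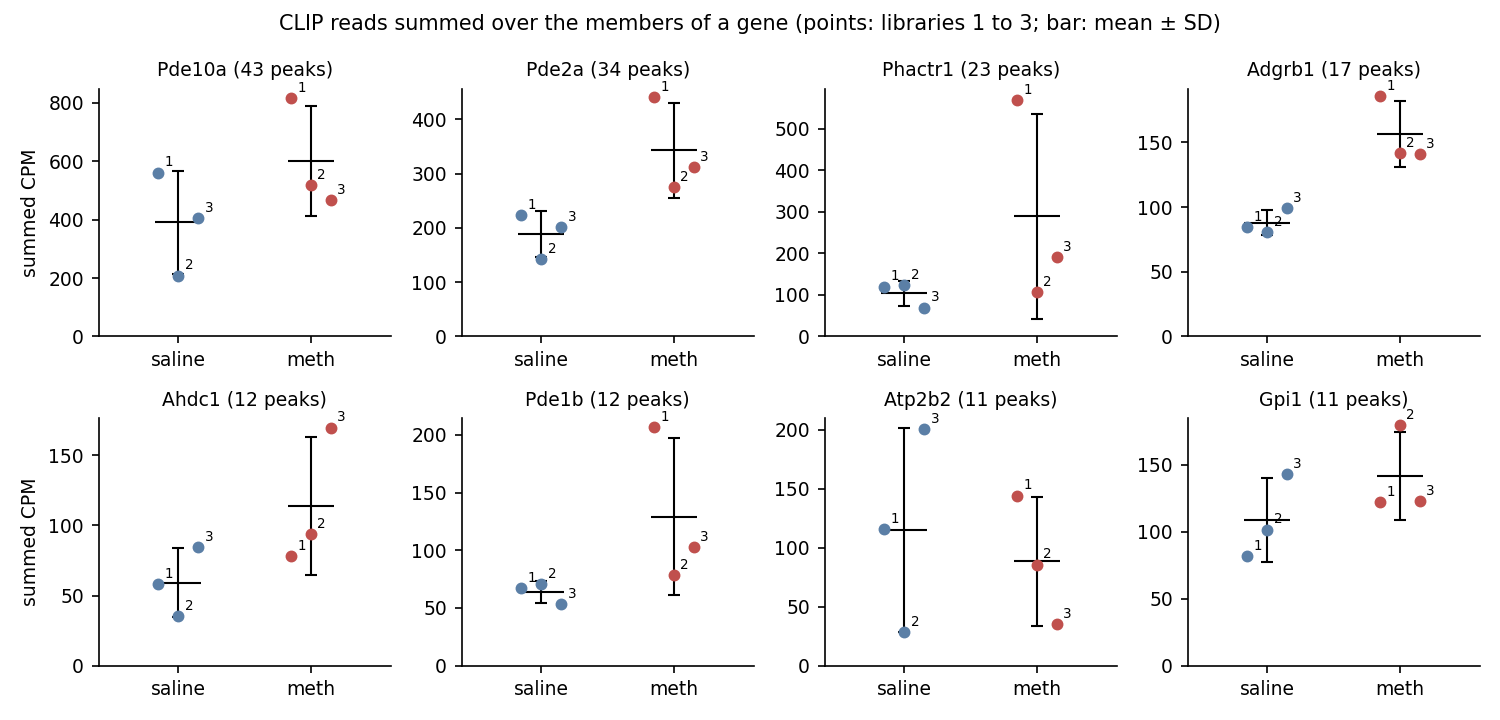
CLIP reads summed over the members of each gene, in CPM, for the 3 saline and 3 methamphetamine libraries (points, numbered by replicate) with the mean ± SD. Pde2a, Adgrb1 and Pde1b had all methamphetamine points above all saline points. In Phactr1, methamphetamine replicate 1, at 569 CPM, carried the difference. The rule chose the members on this contrast, so the sums are a description.

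Members were then counted in lists of genes. Of 26 genes of dopamine and cAMP signalling, which medium spiny neurons use to respond to dopamine, 14 held 91 members. Of the 87 of these with counts, 72 had the higher mean after methamphetamine and 19 did not overlap in that direction. Over all members these shares were 76.8% and 11.2%, and 3.56% of all positions did not overlap in that direction. The median log2 ratio was 0.96 in this list and 0.99 over all members. The rule chose the members on this contrast, so the counts of this and the following lists only describe them. The member of Pde10a with the most reads, at chr17:8913373-8913472, went the other way, with 179, 6 and 100 saline reads and 15, 82 and 15 methamphetamine reads. Rgs9, a striatal regulator of G-protein signalling, held 10 members. Its strongest had 46.5, 4.73 and 28.7 CPM after saline and 53.9, 25.5 and 35.3 after methamphetamine. Pde7b, another cAMP phosphodiesterase, held 4, the strongest with 53.2, 7.09 and 37.3 CPM and then 25.3, 33.7 and 11.8. The strongest members of these 3 genes all overlapped between treatments.

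Of 24 voltage-gated calcium and sodium channel genes, 12 held 27 members, of which 18 had the higher methamphetamine mean. In 5 of the 27 all methamphetamine libraries were above all saline libraries, where 11.2% of all members and 3.56% of all positions showed this. The strongest member of Cacna1c, the pore of an L-type calcium channel, had 60.8, 21.3 and 41.0 CPM after saline and 25.3, 39.8 and 37.0 after methamphetamine, and that of Cacna1a, the pore of P/Q-type channels, had 45.6, 2.36 and 24.5 and then 4.40, 31.6 and 18.5. In Cacnb4, an auxiliary subunit, the strongest member had 38.9, 49.6 and 31.8 CPM after saline and 29.7, 21.4 and 25.2 after methamphetamine, so all methamphetamine libraries were below all saline libraries. Of 27 genes of potassium channels and their regulators, 12 held 23 members, and 12 of the 22 with counts had the higher methamphetamine mean, 5 of them without overlap. Kcnq5, a channel of the M-current, had 230, 21.3 and 83.2 CPM and then 33.0, 151 and 102.5, and Kcnd2, a channel of the A-type current, had 88.3, 30.7 and 39.8 and then 38.5, 70.4 and 33.6. Both overlapped between treatments.

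Of 24 glutamate receptor genes, 13 held 24 members, of which 18 had the higher methamphetamine mean. Of the 24 members, 1 did not overlap in that direction, beside 11.2% of all members and 3.56% of all positions. The member of the metabotropic receptor Grm8 had 112, 128 and 136 CPM after saline and 51.7, 135 and 58.8 after methamphetamine. In Grin1, the obligate NMDA receptor subunit, the strongest member had 19, 10 and 27 saline reads and 8, 12 and 14 methamphetamine reads. Of 20 postsynaptic scaffold genes, 13 held 31 members, and 22 of the 30 with counts had the higher methamphetamine mean, 4 of them without overlap. The strongest was in Dlg4, which encodes PSD-95, with 93.0, 56.7 and 55.0 CPM and then 14.3, 71.4 and 23.5. In these 3 members methamphetamine replicate 1 was the lowest library, and the treatments overlapped.

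Of 34 synaptic adhesion genes, 15 held 25 members, of which 14 had the higher methamphetamine mean. Of the 25 members, 4 did not overlap in that direction, beside 11.2% of all members and 3.56% of all positions. In Ptprd, a presynaptic receptor phosphatase, the strongest member had 1193 reads in saline replicate 1, against 7 and 130 in saline replicates 2 and 3 and 28, 39 and 25 after methamphetamine. In Nlgn1, a neuroligin, the strongest had 15.2, 54.4 and 29.4 CPM after saline and 97.9, 29.6 and 418 after methamphetamine. A single library set the mean of each. Of 48 RNA-binding and splicing regulator genes, 20 held 43 members, of which 33 had the higher methamphetamine mean. Of the 43 members, 5 did not overlap in that direction, beside the same 11.2% and 3.56%. Celf5 held 9 of these 43 members and Rbfox3, the neuronal marker NeuN, held 5. The strongest member of Rbfox1, a neuronal splicing factor, had 95.9, 11.8 and 66.7 CPM and then 12.1, 66.3 and 37.0. Of 20 immediate early genes, which neurons induce on stimulation, 1 held a member: Egr3, with 2, 0 and 1 saline reads and 18, 0 and 0 methamphetamine reads.

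RNA-seq could be compared for 2219 genes that hold members. They were expressed at a median of 7.90 CPM per kilobase of exon, against 2.42 over all 18208 genes of the table. With limma and Benjamini-Hochberg adjustment over all genes, 0 of the 2219 had an adjusted p under 0.05 (0.0% of all genes did); the smallest adjusted p was 0.9998. At an unadjusted p under 0.05 stood 23 of them (1.04%), 14 higher and 9 lower after methamphetamine, where 1.52% of all genes passed, 0.555% higher and 0.961% lower. edgeR on the recovered reads gave 0 adjusted and 11 unadjusted. All methamphetamine libraries were above all saline libraries in 48 host genes, where 2.44% of all genes showed this, and below in 53, where 3.58% did. The median change was 0.02 on the log2 scale in host genes and 0.00 over all genes. Single libraries moved the unadjusted count: it was 101 (4.55%) without methamphetamine replicate 2, where 5.26% of all genes passed, 91 (4.10%) without saline replicate 2, where 5.10% did, 41 without saline replicate 3, 14 without methamphetamine replicate 3 and 11 without saline replicate 1. With the library set as a covariate it was 53 (2.39%), beside 2.97% of all genes. In each of these fits the share of host genes was below that of all genes, and 0 passed the adjusted threshold.

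**Figure D5:**
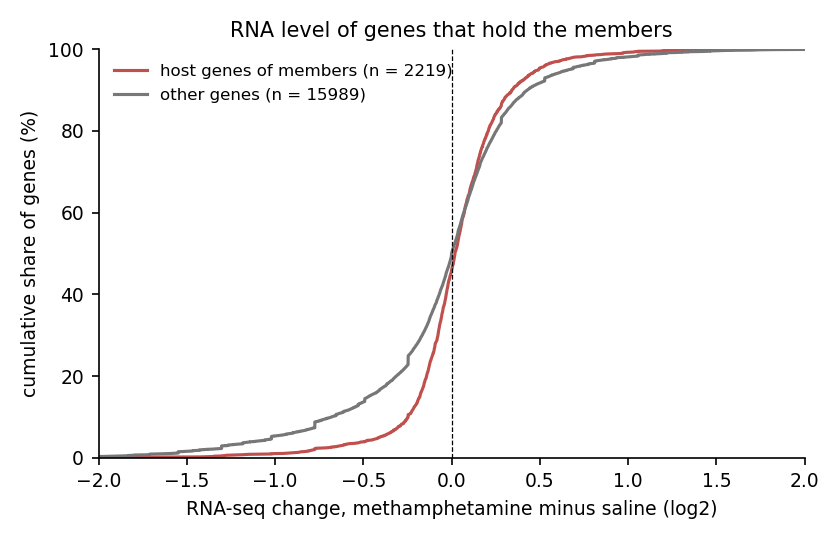
Cumulative share of genes (%) by RNA-seq change after methamphetamine (limma, log2), for the 2219 genes that hold members and the other 15989 genes, drawn from -2 to 2. Both curves cross 50% close to 0; the 10th percentile was -0.25 in host genes and -0.68 in the other genes, and 7.71% of them had under 60 reads in all against 30.4% of the other genes.

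In RNA-seq, Pde10a had log2 CPM values of 10.46, 10.38 and 10.51 after saline and of 10.23, 10.33 and 10.10 after methamphetamine. All methamphetamine values were below all saline values, and the change of -0.23 ± 0.20 (SE) did not pass limma's test (adjusted p = 0.9998). Pde1b had 10.34, 10.26 and 10.32 and then 10.15, 10.21 and 9.99, a change of -0.19 ± 0.19 with the same adjusted p of 0.9998 from limma. Its treatments did not overlap either. Pde10a is one of the medium spiny neuron markers whose summed level is given above.

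The changes of the other genes with the most members were -0.10 ± 0.20 for Pde2a, -0.14 ± 0.20 for Phactr1, -0.04 ± 0.23 for Adgrb1, -0.04 ± 0.24 for Ahdc1, -0.06 ± 0.25 for Atp2b2 and 0.01 ± 0.17 for Gpi1 (log2, ± SE), each with an adjusted p of 0.9998 in limma. With the library set as a covariate Adgrb1, Ahdc1 and Atp2b2 turned positive, at 0.12, 0.12 and 0.04, and Gpi1 turned to -0.01. No RNA-seq difference between treatments was detectable in these genes with 3 pools per treatment.

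The host genes with the smallest unadjusted p were low in RNA-seq. Gna14, a G-protein alpha subunit, had 8, 7 and 5 saline reads and 2, 2 and 2 methamphetamine reads. Mogat1, an acyltransferase of triglyceride synthesis, had 4, 2 and 3 and then 0, 1 and 0, and Ect2l had 2, 3 and 2 and then 0, 0 and 1. Pip5k1b, a phosphoinositide kinase, had 18, 34 and 17 reads and then 56, 53 and 46. Sulf1, which trims heparan sulfate, had 44, 94 and 38 and then 81, 149 and 190. None passed adjustment in limma (adjusted p = 0.9998 for each), and in Sulf1 the treatments overlapped. The CLIP member of Pip5k1b had 13.3, 16.5 and 20.8 CPM after saline and 3.30, 9.19 and 5.04 after methamphetamine, all lower, while its RNA-seq reads were all higher.

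By list, the median RNA-seq change of the genes that hold members was -0.19 for the 14 genes of dopamine and cAMP signalling, of which 2 were positive, -0.09 for the 12 calcium and sodium channel genes, and -0.07 for the 12 potassium channel genes. It was -0.02 for the 13 glutamate receptor genes, 0.02 for the 15 adhesion genes, -0.03 for the 13 scaffold genes and 0.03 for the 20 RNA-binding genes, beside 0.00 over all genes. With genes without a member included, the medians were -0.18 for dopamine and cAMP signalling, -0.07 for calcium and sodium channels and 0.04 for potassium channels. They were -0.01 for glutamate receptors, 0.00 for adhesion, 0.02 for scaffold and 0.04 for RNA-binding genes. Of the host genes of these lists, 0 passed limma's adjusted threshold and 0 had an unadjusted p under 0.05. Over all genes of these lists, with or without a member, 0 passed limma's adjusted threshold and 3 had an unadjusted p under 0.05, where 1.52% of all genes did. These 3 were among the 20 immediate early genes (Btg2, Dusp1 and Fos, named after their values were seen, none with a member). Egr3, the 1 immediate early gene with a member, changed by 0.03 ± 0.20 (SE).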

How the data were processed

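Per the submitters' processing notes, mm10, Trimmomatic, UMI-tools, STAR, bedtools, Subread, featureCounts, limma and edgeR were used; their roles, versions and parameters are not given in the sources used here. The authors deposited CLIP read counts per peak (172271 lines, 147438 distinct positions, each used once), RNA-seq values in log2 CPM, and 1 peak list per treatment with a signal value (a score of unstated scale) and a q-value per peak, per the file headers. 100% of the deposited log2 values inverted to whole reads within 0.01. Whether counting used strand is not stated, so overlapping genes are uncertain. Coordinates are 1-based.

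CPM used the total of distinct positions, and log2 ratios a pseudocount of 1. RNA-seq was tested with limma 3.58.1 (variance trend, all 18208 genes); edgeR 4.0.16 (TMM, filterByExpr) and DESeq2 1.42.0 gave the CLIP background, in R 4.3.3. On simulated data limma recovered 54.5% of 200 genes changed by 2 (log2; 18208 genes, 2 false calls) and edgeR 97.0% of 200 peaks changed by 4 (10358 peaks, 9 false calls). Replicates were separate pools. Members and lists were chosen with earlier results of these data known. Named were the 8 members with the highest signal value, the 8 with the most methamphetamine reads, the genes with the most members, the 5 host genes with the smallest RNA-seq p, and up to 4 genes per list by reads, not all of them described. Alternatives covered scaling, filters, overlap, region, q-value, window, the replicate block and single libraries; the library sets and the split by level were added after seeing the data.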

Additional observations from a re-analysis of the deposited data

How the results depend on the processing

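The number of host genes past limma's adjusted threshold was 0 under all 12 alternatives. The unadjusted count of 23 was 9 with the replicate block, 11 with edgeR, 53 with the library set as a covariate and 11 to 101 with single libraries left out. Same-numbered libraries did not deviate together (correlations of -0.346, -0.821 and -0.489 over 7853 genes). Each such pair joined a library of set A with a library of set B, so the correlations cannot decide whether the pools were paired. The main fit did not use the numbers as pairs. With libraries left out the median RNA-seq change of host genes ran from -0.016 to 0.038 and was negative without methamphetamine replicate 3 only. Over the same fits the RNA-seq change ran from -0.215 to 0.011 in Pde2a, positive without methamphetamine replicate 1. It ran from -0.223 to 0.139 in Adgrb1, from -0.230 to 0.210 in Ahdc1 and from -0.178 to 0.099 in Atp2b2, each positive without methamphetamine replicate 1 and without 1 saline replicate (0.081 in Adgrb1 and 0.048 in Atp2b2 without replicate 3, 0.080 in Ahdc1 without replicate 1). It ran from -0.058 to 0.055 in Gpi1, negative without methamphetamine replicate 3. With the library set as a covariate the changes were 0.122 in Adgrb1, 0.120 in Ahdc1, 0.044 in Atp2b2 and -0.012 in Gpi1.

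The median CLIP log2 ratio of members ran from 0.471 (without methamphetamine replicate 1) to 1.10 with libraries left out. It was 0.052 in library set A and 1.61 in set B. Members with no overlap in the methamphetamine direction numbered 503 to 991 (15.3 to 30.1%) with libraries left out, where fewer libraries make such a gap more common and 4.79 to 11.1% of all positions showed it. They numbered 1396 (42.4%, beside 29.7% of all positions) in set A and 1555 (47.2%, beside 19.3%) in set B. At 20 CPM or more, the members higher after methamphetamine numbered 146 with TMM scaling, 178 in set A, 212 in set B, and 82 to 144 with libraries left out. Below 10 CPM they numbered 1242 in set A. Without the 1% of positions with the most reads, the read share difference was 0.544 percentage points and the treatments overlapped. The read share difference ran from -0.133 to 0.157 with libraries left out. In peaks widened by 25 nt on each side the GGGG share was 70.9% and the GGG share 94.4%, as a longer window holds more runs. The cause of the other shifts was not tested. CLIP depth limits the weak members, where 1 read is a large part of their level.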

Other observations

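Some members lay on small RNAs encoded within introns. Of the 3425 members, 21 overlapped an annotated small RNA gene on the same strand, 15 of them snoRNAs, which guide the modification of ribosomal RNA, and 3 of them miRNAs. These were looked at after their values had been seen. Of the 17 with counts, all 17 had the higher mean after methamphetamine, where 76.8% of all members did. The rule used this contrast, so this count only describes them. The mean was also higher after methamphetamine in 8 of 9 such positions among shared and 6 of 9 among saline-only intron peaks. In 3 the methamphetamine libraries were all above the saline libraries, beside 11.2% of all members and 3.56% of all positions. Of these 3, 2 overlap each other on the snoRNA gene Gm22711, with the same reads. Among the 17, 2 members on the snoRNA gene Gm25128 also overlap each other. The median of the 17 was 0.949, 7.09 and 1.83 CPM after saline and 13.2, 3.06 and 11.8 after methamphetamine. Saline replicate 2 thus lay above methamphetamine replicate 2. The highest library was methamphetamine replicate 1 in 10 and methamphetamine replicate 3 in 7. The member on Snord32a had 11, 7 and 11 saline reads and 48, 6 and 20 methamphetamine reads. The member on the snoRNA gene Gm26447, inside Eif4a2, had 4, 23 and 8 and then 90, 4 and 14. The member on mmu-mir-3535, inside the nucleolin gene Ncl, had 0, 0 and 3 and then 31, 1 and 6. Libraries of set B were the higher ones of their treatment in Gm26447 and in the median over these members.

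Among the 29 members with at least 10 reads in every methamphetamine library and no overlap, chosen after their values were seen, the widest gap was in Pde10a at chr17:8811873-8811972, a distal intron peak with 4, 3 and 13 saline reads and 44, 14 and 20 methamphetamine reads. In CPM this was 3.80, 7.09 and 7.95 against 48.4, 14.3 and 33.6. It was followed by Gm21984, with 4.75, 0 and 2.45 CPM and then 11.0, 10.2 and 18.5, and by Srrm2, which encodes a spliceosome protein of nuclear speckles, with 3.80, 2.36 and 8.56 and then 29.7, 11.2 and 23.5. After these came a locus of Pde2a and the overlapping Gm45837, with the same reads in both (2.85, 2.36 and 7.95 CPM and then 19.8, 15.3 and 21.8), and Elmod1 with 6.65, 2.36 and 7.34 and then 11.0, 15.3 and 40.3. The choice itself required at least 10 reads in every methamphetamine library and no overlap, so these gaps only describe the chosen members. The share of all positions that would pass the same choice is not given here.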
